A study of Mus musculus with 12 samples.

Results

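The genes examined here are 10 genes of the formative and primed epiblast, measured by RNA sequencing in 12 mouse cultures. They comprise the transcription factor genes Otx2, Pou3f1, Foxd3, Foxd4, Pou5f1, Utf1 and Sall4, the DNA methyltransferase gene Dnmt3b, and Sez6 and Spon1, which encode a neuronal membrane protein and a secreted matrix protein. They are 10 of the 24736 genes in the deposited table, and all 10 were among the 14196 genes that passed the filter on low counts over all 12 libraries. Foxd3, Foxd4 and Sez6 passed only through their EpiLC counts, and 7 of the 10 had enough counts in the 9 libraries given CHIR99021. The members were chosen from measured values of these libraries, namely their levels in the EpiLC and CEpiLC groups, and were to be separated into genes lost and genes kept under CHIR99021. The difference between those groups is therefore given as a description, without a test.

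All cultures had been differentiated from embryonic stem cells for 72 h and received bFGF at 10 ng/ml and LGK974, an inhibitor of WNT secretion, at 5 µM. Each of the 4 groups held 3 biological replicates. EpiLC (epiblast-like cells) were wild type and received nothing further. CEpiLC (caudal epiblast-like cells) were wild type and were given CHIR99021, a GSK3 inhibitor that activates WNT signalling, from day 2 to day 3. SOX2-OFF and SOX2-ON were both SOX2 TetON cells with the genotype Sox2-/- and received CHIR99021 on the same schedule. Doxycycline had been removed at differentiation in SOX2-OFF and was continued at 1 µg/ml in SOX2-ON, where it drives a Sox2 transgene placed at Hprt. The TetON line was picked as an edited clone from HM1 TetON embryonic stem cells, the line that also served as wild type, and its rtTA activator is expressed constitutively from Rosa26. Comparisons of either TetON group with CEpiLC therefore differ in line as well as in SOX2, and SOX2-ON against SOX2-OFF differs in doxycycline as well as in SOX2. No TetON culture without CHIR99021 was analysed here.

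As background, embryonic stem cells correspond to the naive epiblast before implantation, and they pass through a formative state to the primed state of the epiblast after implantation. OTX2 and POU3F1 (also called OCT6) are factors of that transition and redirect OCT4, the product of Pou5f1, to new enhancers, while FOXD3 acts on the same enhancers. DNMT3B is the de novo methyltransferase that lays down DNA methylation at this stage, and OCT4, UTF1 and SALL4 are carried over from the naive state. WNT signalling then drives posterior epiblast cells towards the primitive streak and the caudal epiblast, where anterior genes such as Otx2 are shut off.

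The libraries held 10408252 to 27337740 expected counts, with scaling factors of 0.970 to 1.02. Levels are given in TPM, a share of all transcripts that RSEM corrects for transcript length so that genes can be compared with each other. Differences are log2 fold changes from one edgeR model of all 12 libraries, with standard errors (SE), and genes with an adjusted p up to 0.05 were called. The labels describe biological replicates without saying more about their origin, so p-values measure the spread between these cultures. Sox2, the targeted gene, was high in EpiLC (119 to 171 TPM) and SOX2-ON (173 to 215 TPM). It was low in CEpiLC (7.78 to 13.7 TPM) and SOX2-OFF (12.3 to 21.2 TPM). SOX2-OFF was not the lowest group. Its Sox2 values overlapped those of CEpiLC and were called higher by 0.65 (SE 0.24, edgeR adjusted p 0.0367). Reads of the transgene and of the disrupted endogenous gene are not separated. In bulk RNA, fewer cells of a type and less RNA per cell cannot be told apart.

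Of the 10 genes, 8 were lower in CEpiLC than in EpiLC by a log2 fold change of at least 1 and are called lost, while Sall4 and Pou5f1 are called kept. Of all genes tested, 6.33% were lower by that much, a share that says nothing about genes chosen on the same difference. The log2 fold changes of CEpiLC over EpiLC were -6.63 for Sez6, -6.08 for Otx2, -5.21 for Spon1, -4.34 for Pou3f1, -4.06 for Utf1 and -3.22 for Dnmt3b. Those of the kept genes were -0.31 for Sall4 and -0.06 for Pou5f1. Dnmt3b was thus the lost gene with the smallest change and Sall4 the kept gene with the largest. The limit fell in the wide gap between them, which held no other of these genes. Foxd3 and Foxd4 had at most 2 counts in any CEpiLC library, so their size is given as a ratio of counts. EpiLC exceeded CEpiLC 406-fold for Foxd3 (95% counting interval 112 to 3350) and 400-fold for Foxd4 (136 to 1940). These intervals cover counting error alone.

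**Figure D1:**
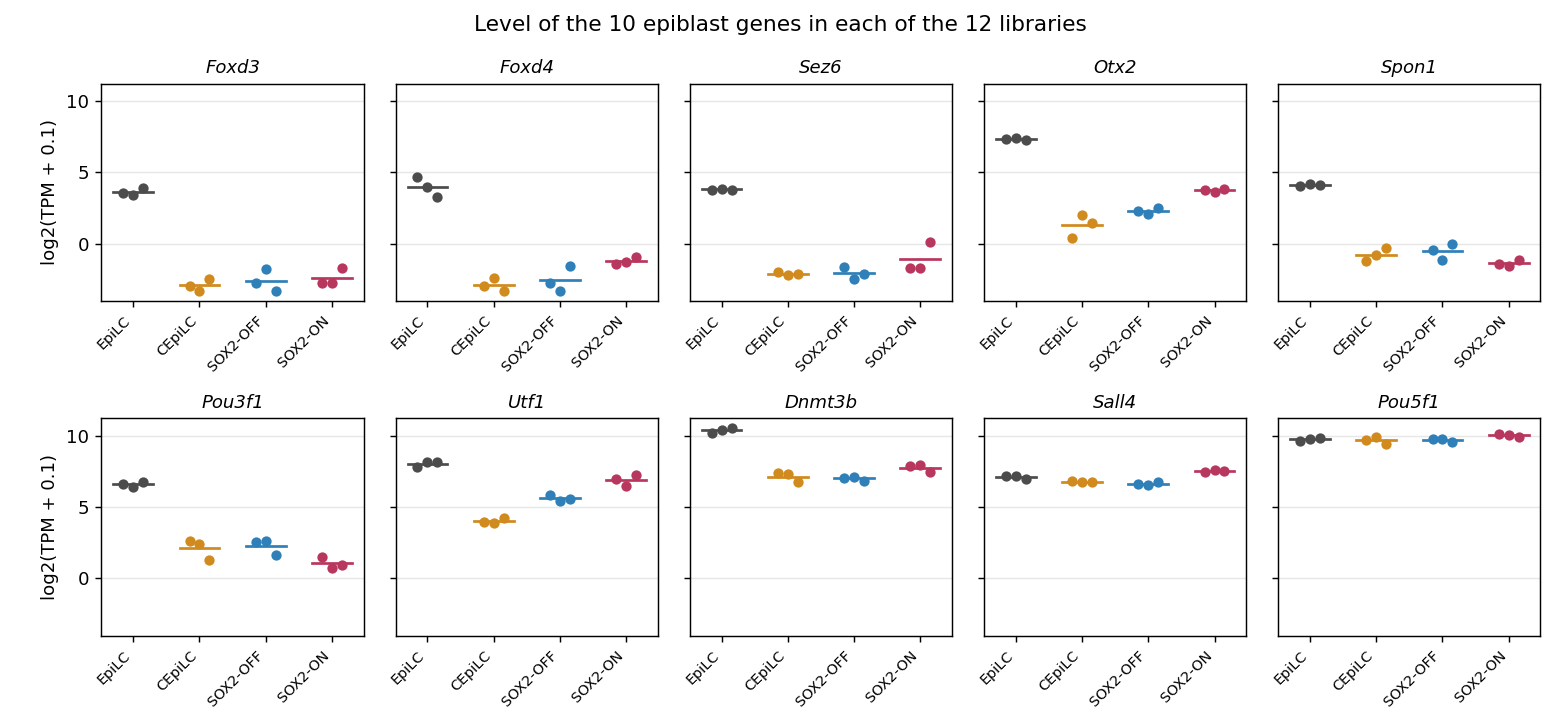
Level of each gene in every library, as log2(TPM + 0.1) on one vertical scale, with the 4 groups on the horizontal axis, 1 point per replicate and a line at the group mean of the log values. Genes are ordered by the difference between CEpiLC and EpiLC. Foxd3 lies near the bottom of the scale in all 9 libraries given CHIR99021, Utf1 steps up from CEpiLC to SOX2-OFF to SOX2-ON, and Pou5f1 stays near the top in all 12 libraries.

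RefSeq promoters of GRCm38.p6 matched 6 of the 10 genes, with 10 start sites in all. The 250 bases before the outermost start are shown for 3 lost genes and 1 kept gene that differed most plainly in what followed: Otx2 (chr14:48667645-48667894, minus strand), Foxd3 (chr4:99656049-99656298, plus strand), Utf1 (chr7:139943606-139943855, plus strand) and Pou5f1 (chr17:35505782-35506031, plus strand). They are written 5′ to 3′ with each CpG dinucleotide, the substrate of the DNMT3 enzymes, in capitals.
Otx2: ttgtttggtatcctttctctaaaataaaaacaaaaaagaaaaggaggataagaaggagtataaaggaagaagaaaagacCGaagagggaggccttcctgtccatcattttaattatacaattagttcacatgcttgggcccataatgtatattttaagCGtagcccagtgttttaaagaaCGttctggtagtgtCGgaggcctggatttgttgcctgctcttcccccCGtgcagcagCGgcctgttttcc
Foxd3: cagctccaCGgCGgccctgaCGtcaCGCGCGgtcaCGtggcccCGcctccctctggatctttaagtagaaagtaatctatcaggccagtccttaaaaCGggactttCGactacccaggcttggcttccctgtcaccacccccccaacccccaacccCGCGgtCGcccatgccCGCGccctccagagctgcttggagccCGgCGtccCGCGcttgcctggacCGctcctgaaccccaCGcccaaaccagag
Utf1: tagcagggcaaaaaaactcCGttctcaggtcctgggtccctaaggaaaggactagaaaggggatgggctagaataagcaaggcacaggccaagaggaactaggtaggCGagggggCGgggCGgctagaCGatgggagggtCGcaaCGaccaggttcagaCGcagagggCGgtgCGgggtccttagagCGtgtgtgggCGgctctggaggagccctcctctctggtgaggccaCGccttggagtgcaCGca
Pou5f1: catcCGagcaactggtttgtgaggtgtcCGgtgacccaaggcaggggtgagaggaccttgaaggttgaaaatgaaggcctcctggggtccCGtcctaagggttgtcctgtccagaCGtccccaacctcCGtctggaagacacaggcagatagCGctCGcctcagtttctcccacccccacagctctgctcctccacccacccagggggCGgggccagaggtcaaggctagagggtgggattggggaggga
These windows held 6 CpGs in Otx2, 21 in Foxd3, 14 in Utf1 and 8 in Pou5f1, against a median of 6 over 32851 promoter windows of the same length. The outermost Foxd4 window held 12, and the Dnmt3b window, which precedes an inner start, held 21. The lost genes thus had starts at the median CpG number (Otx2) as well as far above it (Foxd3). Both strands were searched for the SOX letters AACAAT and ACAAAG, the octamer ATGCAAAT, the TCF/LEF letters CTTTGA and the OTX letters TAATCC, which were held by 9.42, 16.5, 1.60, 13.8 and 6.25% of all promoter windows. None of the 4 windows shown held any of these letters, and 8 of the members' 10 windows held none. An inner Otx2 window held TAATCC, and an inner Pou5f1 window held AACAAT and TAATCC. The matches are a description of sequence and do not show a bound site.

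Otx2, the homeobox gene of the anterior epiblast and forebrain (chromosome 14, 48656781 to 48667644 in GRCm38.p6), was almost shut off in CEpiLC and was less low where SOX2 was held high. Its replicates read 166, 176 and 153 TPM in EpiLC and 1.24, 3.95 and 2.67 TPM in CEpiLC. They read 4.80, 4.05 and 5.68 TPM in SOX2-OFF and 13.5, 12.1 and 14.4 TPM in SOX2-ON. All 4 groups were separate from their neighbours, in the order EpiLC, SOX2-ON, SOX2-OFF and CEpiLC. From SOX2-OFF to SOX2-ON Otx2 rose by 1.44 on the log2 scale (SE 0.24, edgeR adjusted p 0.000639). Even so, the mean of SOX2-ON was only 8.07% of that of EpiLC, against 2.94% in SOX2-OFF and 1.59% in CEpiLC. Otx2 was chosen for low values in CEpiLC, so its difference from that group is only a description. SOX2-OFF exceeded CEpiLC by 0.96 (SE 0.30, edgeR adjusted p 0.0178). That last call was lost without CEpiLC replicate 1, the library with the lowest value (0.49, adjusted p 0.0586), without SOX2-OFF replicate 3 (0.85, adjusted p 0.0546) and in a fit of only the 6 libraries compared (0.92, adjusted p 0.0799).

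Pou3f1, which encodes the POU factor OCT6 (chromosome 4, 124657646 to 124660655), moved the opposite way to Otx2 when SOX2 was held high. It read 101, 85.7 and 109 TPM in EpiLC and 6.04, 5.28 and 2.40 TPM in CEpiLC. The TetON groups read 5.80, 6.12 and 2.99 TPM in SOX2-OFF and 2.75, 1.57 and 1.79 TPM in SOX2-ON. All SOX2-ON values lay below all SOX2-OFF values, while SOX2-OFF and CEpiLC overlapped. Pou3f1 fell by 1.37 on the log2 scale from SOX2-OFF to SOX2-ON (SE 0.32, edgeR adjusted p 0.00674), and its SOX2-ON mean was 2.06% of that of EpiLC. SOX2-OFF and CEpiLC differed by 0.09 (95% interval -0.53 to 0.71, edgeR adjusted p 0.811). This last difference is only a description, because Pou3f1 was chosen for low values in CEpiLC.

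Foxd3 and Foxd4 encode related forkhead factors, of which FOXD3 is required for the epiblast and FOXD4 is known from the early neural plate. Foxd3 (chromosome 4, 99656299 to 99658671) had 290, 238 and 231 counts in EpiLC. The CEpiLC libraries had 1, 0 and 1 counts, the SOX2-OFF libraries 1, 4 and 0, and the SOX2-ON libraries 1, 1 and 4. All 9 libraries given CHIR99021 were thus at or near the limit of detection, and a difference between them was not detectable at this depth. The counting ratio of SOX2-ON to SOX2-OFF was 1.02, with a 95% counting interval of 0.26 to 4.23. Foxd4 (chromosome 19, 24898943 to 24901016) was the most uneven gene within EpiLC, with 26.2, 15.3 and 9.73 TPM from 629, 342 and 151 counts. The CEpiLC libraries had 1, 2 and 0 counts, those of SOX2-OFF 1, 0 and 3, and those of SOX2-ON 6, 6 and 8. The 3 SOX2-ON libraries had more Foxd4 counts than every SOX2-OFF and CEpiLC library, but these counts are few. The counting ratio was 4.26 (1.43 to 17.1) for SOX2-ON to SOX2-OFF and 7.09 (2.10 to 37.2) for SOX2-ON to CEpiLC. Foxd4 entered the edgeR model only through EpiLC, and its adjusted p of 0.0451 against CEpiLC, which was lost without any one of the 6 libraries compared (adjusted p 0.0561 to 0.158), is not counted as a call.

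Utf1, a chromatin-associated factor of pluripotent cells (chromosome 7, 139943856 to 139945112), was the lost gene with the largest share of the wild-type EpiLC level in both TetON groups. The level of TetON cells without CHIR99021 was not analysed here. It read 229.9, 291 and 286 TPM in EpiLC and 15.2, 14.6 and 19.1 TPM in CEpiLC. The values were 58.1, 43.2 and 47.3 TPM in SOX2-OFF and 127, 89.7 and 155 TPM in SOX2-ON. No group overlapped another. Utf1 rose by 1.27 from SOX2-OFF to SOX2-ON (SE 0.18, edgeR adjusted p 0.000153). It rose by 1.65 from CEpiLC to SOX2-OFF (SE 0.20, edgeR adjusted p 2.22e-05). That step is only a description, because Utf1 was chosen for low values in CEpiLC. Relative to the EpiLC mean, CEpiLC stood at 6.06%, SOX2-OFF at 18.4% and SOX2-ON at 46.2%. In CEpiLC it was Dnmt3b that kept the largest share, at 10.7%. A step from CEpiLC to SOX2-OFF, where Sox2 was low in both, crosses the lines, and the line and SOX2 cannot be told apart there.

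Dnmt3b (chromosome 2, 153649411 to 153687730) was the most abundant of the 10 genes in EpiLC per transcript length, and the lost gene with the highest remaining level. It read 1197, 1365 and 1500.2 TPM in EpiLC, and 168, 158 and 108 TPM in CEpiLC. SOX2-OFF read 135, 140.5 and 117 TPM, and SOX2-ON read 242, 244 and 180.1 TPM. SOX2-ON lay above both other groups given CHIR99021, which overlapped each other. The rise from SOX2-OFF to SOX2-ON was 0.71 (SE 0.15, edgeR adjusted p 0.0033), to 16.4% of the EpiLC mean. Of other genes of the de novo methylation machinery, Dnmt3a moved the opposite way between the TetON groups and Dnmt3l was not called. Dnmt3a fell by 0.31 from SOX2-OFF to SOX2-ON (SE 0.06, edgeR adjusted p 0.00218), from 29.2 to 32.1 TPM down to 22.9 to 26.7 TPM. Dnmt3l, the cofactor without catalytic activity, read 4.37 to 6.88 TPM in CEpiLC, 55.2 to 71.0 TPM in SOX2-OFF and 69.4 to 98.2 TPM in SOX2-ON. Dnmt3l was higher than in CEpiLC by 3.45 in SOX2-OFF (SE 0.17, edgeR adjusted p 3.45e-08) and by 3.71 in SOX2-ON (SE 0.17, edgeR adjusted p 8.54e-09), both across lines. Between the overlapping TetON groups Dnmt3l differed by 0.26 (95% interval -0.04 to 0.57, edgeR adjusted p 0.181).

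Sez6 and Spon1 encode surface and matrix proteins known best from neurons, and both were low in every culture given CHIR99021. Sez6 (chromosome 11, 77930587 to 77979052) read 13.8, 14.4 and 13.5 TPM in EpiLC and 0.15, 0.12 and 0.13 TPM in CEpiLC. It read 0.22, 0.08 and 0.13 TPM in SOX2-OFF and 0.20, 0.21 and 0.96 TPM in SOX2-ON. The third SOX2-ON value, from 35 counts against 8 in each of the other two, decides the result. Sez6 entered the edgeR model only through EpiLC, so its differences here are not counted as calls. The difference between SOX2-ON and CEpiLC was 1.66 (SE 0.58, edgeR adjusted p 0.0268), but only 0.57 without that library (adjusted p 0.34), and it also missed the threshold without CEpiLC replicate 1 (adjusted p 0.0641) or 2 (adjusted p 0.07). SOX2-ON and SOX2-OFF differed by 1.62 (SE 0.61, edgeR adjusted p 0.0632), which passed it without SOX2-ON replicate 1 (adjusted p 0.0254) or 2 (adjusted p 0.0298) and was 0.52 without replicate 3. The same library had the highest summed level of 10 visceral endoderm genes in its group, at 321 TPM against 113 and 144 TPM, and the part of this in the Sez6 value was not tested. Genes of chromosome 11 stood lower in the TetON libraries than in wild type by a median of 0.52 on the log2 scale. Taking the shift of each chromosome out moved the difference between SOX2-ON and CEpiLC for Sez6 to 2.19. Spon1 (chromosome 7, 113765998 to 114043375) read 16.4, 18.0 and 17.6 TPM in EpiLC, and 0.33, 0.48 and 0.69 TPM in CEpiLC. It read 0.63, 0.35 and 0.88 TPM in SOX2-OFF and 0.27, 0.23 and 0.35 TPM in SOX2-ON. SOX2-ON values were low, with the highest equal to the lowest of SOX2-OFF. Spon1 fell by 1.11 from SOX2-OFF to SOX2-ON (SE 0.34, edgeR adjusted p 0.0248), a call that was lost without either of SOX2-OFF replicates 1 and 3 or SOX2-ON replicates 1 and 2 (adjusted p 0.0675 to 0.0933), and by limma-voom (-1.01, adjusted p 0.0697).

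The kept genes Pou5f1 and Sall4 had substantial levels in all cultures, with the highest means where SOX2 was held high. Pou5f1 (chromosome 17, 35506032 to 35510777), which encodes OCT4, read 813, 907 and 942 TPM in EpiLC and 831, 993 and 705 TPM in CEpiLC. SOX2-OFF read 887, 897 and 768 TPM, and SOX2-ON read 1159.9, 1079.6 and 985 TPM. All SOX2-ON values lay above those of SOX2-OFF and EpiLC, but 1 CEpiLC value exceeded the lowest of them. The difference between SOX2-ON and SOX2-OFF was 0.27 (95% interval 0.05 to 0.48, edgeR adjusted p 0.0662), which did not pass the threshold. It passed under 6 of 22 alternatives, among them the fits without SOX2-ON replicate 3, CEpiLC replicate 2 or CEpiLC replicate 3 (adjusted p 0.0292 to 0.039). Against CEpiLC, SOX2-ON was higher by 0.30 (SE 0.10, edgeR adjusted p 0.0213), a call lost without CEpiLC replicate 3 (0.20, adjusted p 0.0872), without SOX2-ON replicate 1 (0.21, adjusted p 0.106) and in a fit of only the 6 libraries compared (adjusted p 0.0612). Sall4 (chromosome 2, 168748332 to 168767201), a zinc finger factor of pluripotent cells, read 147, 148 and 126 TPM in EpiLC and 113, 109.9 and 112 TPM in CEpiLC. It read 99.8, 93.5 and 108 TPM in SOX2-OFF and 178, 193 and 189 TPM in SOX2-ON. All 4 groups were separate, with SOX2-ON highest and SOX2-OFF lowest. Sall4 rose by 0.82 from SOX2-OFF to SOX2-ON (SE 0.08, edgeR adjusted p 6.95e-06). SOX2-OFF and CEpiLC differed by -0.16 (95% interval -0.33 to 0.01, edgeR adjusted p 0.104), a difference called under 3 of 22 alternatives, among them the fits without EpiLC replicate 3 (adjusted p 0.0462) or SOX2-OFF replicate 3 (adjusted p 0.0335).

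Set side by side, SOX2-ON against SOX2-OFF called 6 of the 7 genes that had enough counts without EpiLC. Otx2, Utf1, Dnmt3b and Sall4 were higher, where 14.8% of all genes tested were called higher, and Pou3f1 and Spon1 were lower, where 14.1% were called lower. The median log2 fold change of the 7 genes was 0.71, beside -0.01 over all genes. The groups did not overlap in 5 of the 7 genes with SOX2-ON above, as in 26.9% of all genes, and in 1 with SOX2-ON below, as in 16.6%. Both comparisons with CEpiLC share libraries with the choice of the genes. The lost genes were chosen for low values there, which left little room for a lower value, so the directions of their differences from CEpiLC are given as a description. In SOX2-OFF against CEpiLC, Otx2 and Utf1 were called higher (23.6% of all genes were) and 0 of the 7 lower (24.9% of all genes were), also 0 at an unadjusted p of at most 0.05, by DESeq2 or by limma-voom. In SOX2-ON against CEpiLC, Otx2, Utf1, Sall4, Dnmt3b and Pou5f1 were called higher (27.9% of all genes were) and Pou3f1 lower (28.6% of all genes were).

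**Figure D2:**
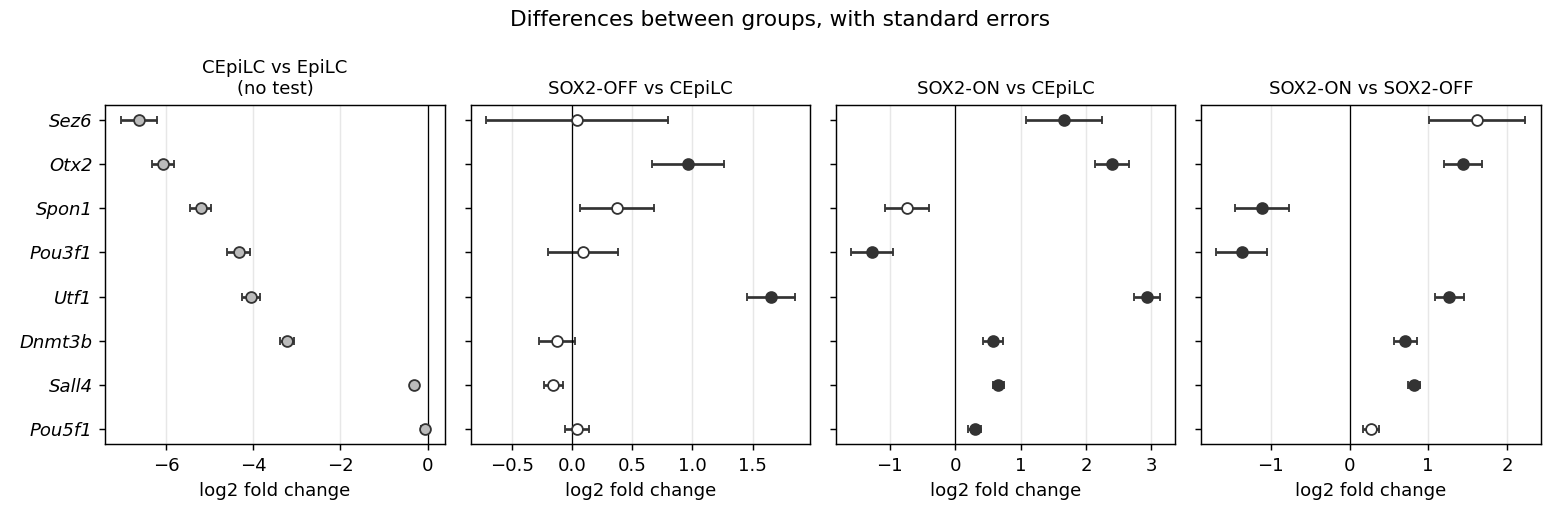
Log2 fold change (horizontal axis) of 8 genes in 4 comparisons, as points with standard errors, in the order of the loss in CEpiLC. Black points passed the threshold on the adjusted p (0.05), white points did not, and grey points carry no test. Each panel has its own scale, and Foxd3 and Foxd4 are left out because their fitted values rest on few counts. Sez6 entered the model only through EpiLC, and its black point is not counted as a call. In the right panel Otx2 (1.44), Utf1 (1.27), Sall4 (0.82) and Dnmt3b (0.71) lie above 0 and Pou3f1 (-1.37) and Spon1 (-1.11) below.

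The proportion of the POU factor genes was most extreme where SOX2 was held high. The ratio of Pou5f1 to Pou3f1 TPM was 8.04, 10.6 and 8.62 in EpiLC. The CEpiLC libraries gave 138, 188 and 294, and those of SOX2-OFF gave 153, 147 and 257. With SOX2 held high the ratio was 422, 688 and 550, above every other library. CEpiLC and SOX2-OFF overlapped, and all 9 libraries given CHIR99021 lay above all EpiLC libraries. The gap between EpiLC and CEpiLC follows from the choice of the genes.

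**Figure D3:**
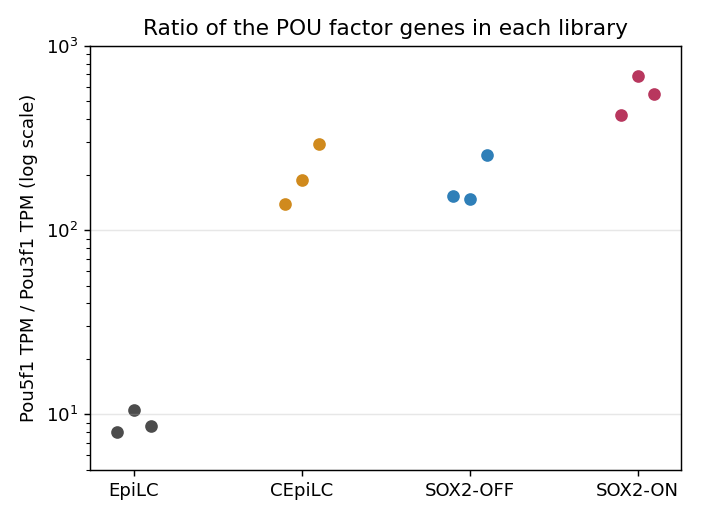
Ratio of Pou5f1 TPM to Pou3f1 TPM in each library (vertical log axis), with 1 point per replicate and the 4 groups on the horizontal axis. EpiLC lies at 8.04 to 10.6, CEpiLC and SOX2-OFF overlap at 138 to 294 and 147 to 257, and SOX2-ON lies above both at 422 to 688.

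Other formative and primed epiblast genes were divided evenly between the TetON groups. Of 18 listed genes, all tested, 5 were higher in SOX2-ON than in SOX2-OFF and 5 were lower, with a median of 0.00 beside -0.01 over all genes. Of all genes tested, 14.8% were called higher and 14.1% lower. Fgf5, the classical ligand gene of the primed epiblast, read 16.7, 19.0 and 14.3 TPM in SOX2-OFF and 4.98, 4.62 and 3.85 TPM in SOX2-ON, a fall of 1.94 (SE 0.33, edgeR adjusted p 0.00067). Nodal, the signal that maintains the epiblast and patterns the streak, fell by 2.25 (SE 0.30, edgeR adjusted p 0.000114), from 49.6 to 80.1 TPM down to 10.9 to 17.5 TPM. Its feedback inhibitor gene Lefty2 fell by 1.54 (SE 0.52, edgeR adjusted p 0.0426). Sox3, the SOXB1 relative of Sox2, rose by 1.55 (SE 0.30, edgeR adjusted p 0.00176), from 2.20 to 3.81 TPM up to 6.53 to 11.3 TPM, still below its 49.0 to 63.7 TPM in EpiLC. The other calls were Etv5, Grhl2, Pim2 and Tcf15, which were higher, and Cdh2 and Dnmt3a, which were lower. In SOX2-OFF against CEpiLC, 3 of the 18 were higher, namely Dnmt3l, Fgf5 (1.72) and Nodal (2.24), and 6 were lower, among them Sox3 (-2.73). Of all genes, 23.6% were called higher and 24.9% lower there. The median of the 18 was -0.33, beside -0.01 over all genes. In SOX2-ON against CEpiLC, 3 were higher and 8 lower, with a median of -0.23 beside -0.01 over all genes. Of all genes, 27.9% were called higher and 28.6% lower there.

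**Figure D4:**
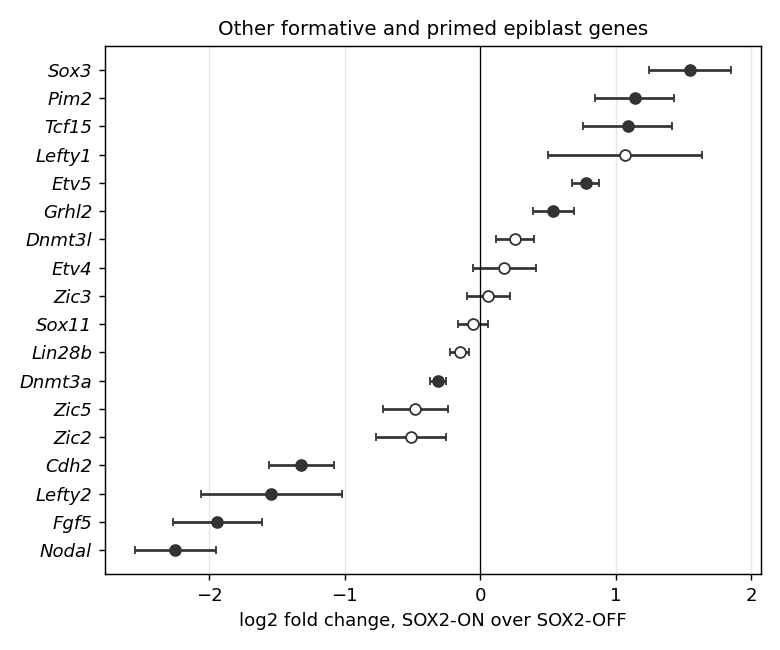
Log2 fold change of SOX2-ON over SOX2-OFF (horizontal axis) for 18 other formative and primed epiblast genes, with standard errors. Black points passed the threshold on the adjusted p (0.05) and white points did not. Sox3 (1.55) lies highest and Nodal (-2.25) lowest, with 5 black points on either side of 0.

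Most naive genes were higher where SOX2 was held high. Of 12 listed naive pluripotency genes, 11 were tested and 7 were called higher in SOX2-ON than in SOX2-OFF. Of all genes, 14.8% were called higher and 14.1% lower in that comparison. The median of the 11 was 1.46, beside -0.01 over all genes. Nr5a2 (6.13, SE 0.24, edgeR adjusted p 1.37e-08), Dppa3 (4.16, SE 0.28, edgeR adjusted p 4.26e-07) and Klf2 (3.95, SE 0.39, edgeR adjusted p 9.15e-06) rose most. The summed level of the 12 genes was 35.2 to 40.6 TPM in EpiLC, 64.4 to 75.9 TPM in CEpiLC, 128 to 149 TPM in SOX2-OFF and 342 to 382 TPM in SOX2-ON. Among 10 pluripotency genes shared by naive and primed cells, Sox2 itself, Dppa2 (1.36) and Dppa4 (1.11) were called higher in SOX2-ON than in SOX2-OFF, and Tdgf1 (-1.93), which encodes a NODAL co-receptor, was called lower.

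Markers of other cell types moved with the groups. The sum of 10 primitive streak and caudal genes was 3.59 to 5.43 TPM in EpiLC, 1040 to 1880 TPM in CEpiLC, 1200 to 1460 TPM in SOX2-OFF and 218 to 286 TPM in SOX2-ON. Between the TetON groups 9 of the 10 were lower and Cdx2 higher in SOX2-ON. Of all genes, 14.1% were called lower and 14.8% higher in that comparison. The sums of CEpiLC and SOX2-OFF overlapped, but single genes differed. In SOX2-OFF 3 of the 10 were called higher than in CEpiLC, among them Eomes (3.55), and 4 lower, among them Cdx2 (-2.79). Of all genes, 23.6% were called higher and 24.9% lower there. The sum of 10 visceral endoderm genes was 9.68 to 13.1 TPM in EpiLC and 6.21 to 9.45 TPM in CEpiLC, where Ttr and Hnf4a had 0 counts, but 273 to 317 TPM in SOX2-OFF and 113 to 321 TPM in SOX2-ON. Of these genes, 8 were tested, and 4 were called lower and Gata6 higher in SOX2-ON than in SOX2-OFF. The sum of 8 fibroblast feeder genes was 57.9 to 122 TPM in EpiLC, 70.4 to 98.2 TPM in CEpiLC, 21.3 to 42.6 TPM in SOX2-OFF and 22.5 to 44.6 TPM in SOX2-ON. These genes did not move as one. Against CEpiLC, Acta2 and Thy1 were called lower in both TetON groups. Dcn was called higher in both, and Lum higher in SOX2-ON. Between the TetON groups 0 of the 8 were called by edgeR, at an unadjusted p of at most 0.05, by DESeq2 or by limma-voom. Feeders had been depleted by letting them attach to plastic before differentiation. The part of these cell types in the values of the 10 genes was not tested.

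Genes most alike to 4 of the members were found by the Pearson correlation of log2 CPM over the 12 libraries, among 8112 other genes whose mean was 4 log2 CPM or more. The libraries fall into 4 groups, so the correlation mostly reflects the order of the groups and is given without a p. The genes most like Otx2 were Jarid2 (r 0.987), which encodes a cofactor of the Polycomb complex PRC2, and the overlapping imprinted genes Snurf (0.983) and Snrpn (0.982), whose reads cannot be fully separated. The mean level of Jarid2 followed the same order at 123, 61.5, 44.7 and 39.1 TPM in EpiLC, SOX2-ON, SOX2-OFF and CEpiLC, with a much smaller range than Otx2. Those like Dnmt3b included Pls3 (0.984) and Rnf220 (0.984), and those most like Foxd3 were Emb (0.975), Cbr1 (0.974) and G3bp2 (0.973). For the kept gene Pou5f1 the likeness was lower, with Bnip3 (0.885), Dbr1 (0.850) and Traf3ip1 (0.847).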

How the data were processed

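Polyadenylated RNA was sequenced as strand-specific, single-end reads of 76 bp. The authors trimmed reads with cutadapt 1.16, aligned them to mm10 with STAR 2.5.2a and quantified RefSeq genes with RSEM 1.3.0, per the labels and methods. The deposited table holds expected counts from RSEM, of which 2.59 to 3.43% per library were not whole numbers because reads fit several genes, and deposited TPM values, which are scaled by length and depth. Replicates were not pooled, and 0 columns of the table were left unused.

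Expected counts were rounded and tested with edgeR 4.0.16 (quasi-likelihood test, TMM, filterByExpr, limma 3.58.1, R 4.3.3) in one model of 12 libraries in 4 groups, without covariates, with Benjamini-Hochberg adjustment over 14196 genes. Standard errors were derived from the F statistic, and intervals used its moderated degrees of freedom. The common biological coefficient of variation was 0.105. TPM values served to show levels. The study used DESeq2, which was run as an alternative (1.42.0). Counting ratios carry exact binomial intervals, and reads without molecular identifiers make these cover counting error only. Positions are those of RefSeq in GRCm38.p6. All replicate pairs differed by more than sampling noise. The tests were checked on simulated counts.

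The members and gene lists were chosen with earlier results of these data known. The text names the members, Sox2, of each list up to 4 called genes of the largest change and any called against most of their list, and the 3 genes most like each of 4 members. Dnmt3a is named as a partner of Dnmt3b, and Tcf15, Pim2, Etv5, Grhl2 and Cdh2 to complete small counts, after their values were seen. Alternatives were RLE or library size scaling, DESeq2, limma-voom, other filters on low counts, a fit of 6 libraries, a replicate block, a threshold of 0.01, removal of the chromosome shift, and leaving out each library.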

Additional observations from a re-analysis of the deposited data

How the results depend on the processing

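The 8 lost genes remained 8 under every alternative run, including a stricter limit. That count had little room to move, because the genes were chosen on this same difference. Its smallest size among the lost genes was -3.22, for Dnmt3b. Among the log2 fold changes of the members other than Foxd3, 534 values kept their direction and side of the threshold, 29 were no longer called, 15 became called and 10 changed sign. These values include Foxd4 and Sez6, which passed the filter only through EpiLC and are not counted as calls. Of the values that left the threshold, 10 were of Foxd4 and 5 of Sez6, both in SOX2-ON against CEpiLC. Sez6 also gave 2 of those that passed it, in SOX2-ON against SOX2-OFF. The sign changes were all in SOX2-OFF against CEpiLC, in differences without a call. Library size scaling gave Sez6 -0.0023 and Pou5f1 -0.0099, and limma-voom gave Sez6 -0.0442. Without 1 library, Sez6 ran from -0.50 to 0.415, Pou5f1 from -0.0642 to 0.145, Dnmt3b from -0.296 to 0.0016, Pou3f1 from -0.13 to 0.361 and Foxd4, on few counts, from -0.738 to 1.52. The libraries whose absence turned the sign were CEpiLC replicate 2 and SOX2-OFF replicate 1 for Sez6, CEpiLC replicate 3 for Pou5f1, CEpiLC replicate 1 for Dnmt3b, CEpiLC replicate 3 and SOX2-OFF replicate 2 for Pou3f1, and SOX2-OFF replicate 3 for Foxd4. The cause was not tested.

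The threshold of 0.01 left 2437 genes called between SOX2-ON and SOX2-OFF in place of 4091. It left 1 member in place of 2 for SOX2-OFF against CEpiLC, and 5 in place of 8 for SOX2-ON against CEpiLC. These counts of members include Foxd4 and Sez6, which passed the filter only through EpiLC. The fit of only the 6 libraries compared also gave 1 and 5. It lost Otx2 in the former and Pou5f1 in the latter, where Foxd4 and Sez6 were not tested. Leaving out 1 library gave 5 to 7 called members for SOX2-ON against SOX2-OFF, 1 to 3 for SOX2-OFF against CEpiLC and 6 to 9 for SOX2-ON against CEpiLC. Between SOX2-ON and SOX2-OFF, limma-voom no longer called Spon1 (adjusted p 0.0697). The called genes without 1 library numbered 3054 to 4336, 5947 to 7004 and 7232 to 8044. Sall4 was called lower in SOX2-OFF than in CEpiLC with library size scaling (adjusted p 0.0239).

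Same-numbered libraries deviated together in EpiLC and CEpiLC (r 0.103 to 0.132). Each tested comparison had at least 1 correlation under 0.1, so the numbers were not taken as pairs. The correlations ran from 0.0533 to 0.0897 for SOX2-ON with SOX2-OFF. They ran from 0.0526 to 0.179 for SOX2-OFF with CEpiLC and from 0.0637 to 0.201 for SOX2-ON with CEpiLC. Some of these thus exceeded those of EpiLC with CEpiLC. With a replicate block, Pou5f1 was called higher in SOX2-ON than in SOX2-OFF (0.26, adjusted p 0.0345), giving 7 members in place of 6, and no other call on a member changed. Depth limits Foxd3, Foxd4 and Sez6, which had few counts in the libraries given CHIR99021.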

Other observations

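Beyond the epiblast genes, the anterior neural and anterior mesendoderm lists also differed between the TetON groups. Of 12 anterior neural genes, 11 were tested and 6 were called higher in SOX2-ON than in SOX2-OFF, as were 14.8% of all genes. The median of the 11 was 1.15, beside -0.01 over all genes. Sox21 (6.57, SE 0.42, edgeR adjusted p 3.11e-07), Pax6 (3.50, SE 0.58, edgeR adjusted p 0.000571) and Zic1 (3.08, SE 0.33, edgeR adjusted p 1.72e-05) rose most. The Pax6 value rests on few counts, with 2, 1 and 1 in SOX2-OFF. Pax6 reached only 0.55 to 0.64 TPM in SOX2-ON, below its 0.87 to 2.40 TPM in EpiLC. Nes, which encodes the intermediate filament nestin, went against the list and fell by 1.66 (SE 0.15, edgeR adjusted p 5.04e-06), from 68.3 to 85.9 TPM in SOX2-OFF down to 22.4 to 28.7 TPM in SOX2-ON.

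Of 8 anterior mesendoderm genes, which mark the anterior streak and its derivatives, 7 were tested. Of all genes, 14.1% were called lower and 14.8% higher in SOX2-ON than in SOX2-OFF. Gsc (-5.11, SE 0.55, edgeR adjusted p 1.84e-05), Lhx1 (-4.86, SE 0.70, edgeR adjusted p 0.000208), Dkk1 (-1.81, SE 0.39, edgeR adjusted p 0.00342) and Foxa2 (-1.28, SE 0.44, edgeR adjusted p 0.0433) were lower in SOX2-ON than in SOX2-OFF, and Hhex was higher (1.09, SE 0.16, edgeR adjusted p 0.000272). Otx2, itself a gene of anterior mesendoderm as well as of the epiblast, went the other way, with 12.1 to 14.4 TPM in SOX2-ON against 4.05 to 5.68 TPM in SOX2-OFF.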
